A study of Homo sapiens with 20 samples.

Results

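NF-κB subunits and the feedback and target genes of the pathway were followed in U2OS cells, an established human osteosarcoma line, with and without interferon gamma (IFNγ). The 10 genes were taken by symbol from the 43366 genes of the count table, and all 10 were present and passed the filter on low counts in every comparison. They comprised the subunits NFKB1, NFKB2, RELA and RELB, the inhibitor NFKBIA, the atypical inhibitor family protein BCL3, the kinase IKBKE, and the induced genes TNFAIP3, TNFAIP2 and BIRC3. RNA-seq was performed on 5 WT clones and on 5 clones labelled as knocked out for ZBTB48, a zinc finger protein that binds telomeres and gene promoters. Each clone was sampled without treatment and after 24 h in 250 U/ml IFNγ, which gave 4 groups of 5 libraries. All groups share the U2OS background, and each library came from 1 clone, so the spread within a group is a spread between clones.

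NF-κB is a family of dimeric transcription factors that is held in the cytoplasm by inhibitor proteins until an upstream kinase complex marks these for degradation. In the canonical pathway dimers of RELA and the processed product of NFKB1 enter the nucleus, and in the non-canonical pathway RELB pairs with the processed product of NFKB2. NF-κB induces several of its own subunits and inhibitors, which is the feedback the gene set is named for, while IFNγ acts through a receptor pathway of its own and induces the transcription factor IRF1.

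The promoters of some of the genes, chosen as given below, are shown first, since several of them hold letters of the κB consensus, the site bound by NF-κB dimers. Windows from 250 bases before to 50 bases after a RefSeq start on GRCh38.p14 were matched for 9 of the 10 genes (RELB: no entry), with 13 windows in all, of which 6 lie at the start of the gene as counted. Shown are the 250 bases before the start of BIRC3 (chr11:102317234-102317483, plus strand), NFKBIA (chr14:35404750-35404999, minus strand), NFKB1 (chr4:102501109-102501358, plus strand) and IKBKE (chr1:206470226-206470475, plus strand), and 30 bases that hold both matches of TNFAIP3 (chr6:137867189-137867218, plus strand). BIRC3 and TNFAIP3 had the largest log2 fold changes after IFNγ in the WT clones, NFKBIA and NFKB1 are the classical inhibitor and subunit of the canonical pathway, and IKBKE is a gene without a match. Each is written 5′ to 3′ on the strand of the gene, and capitals mark matches to the κB consensus on either strand.
BIRC3: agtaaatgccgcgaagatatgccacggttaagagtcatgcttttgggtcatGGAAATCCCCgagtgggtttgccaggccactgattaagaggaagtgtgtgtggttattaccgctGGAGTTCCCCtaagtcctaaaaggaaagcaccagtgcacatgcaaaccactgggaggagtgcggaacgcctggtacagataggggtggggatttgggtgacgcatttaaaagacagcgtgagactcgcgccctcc
TNFAIP3: tttGGAAAGTCCCgtGGAAATCCCCgggcc
NFKBIA: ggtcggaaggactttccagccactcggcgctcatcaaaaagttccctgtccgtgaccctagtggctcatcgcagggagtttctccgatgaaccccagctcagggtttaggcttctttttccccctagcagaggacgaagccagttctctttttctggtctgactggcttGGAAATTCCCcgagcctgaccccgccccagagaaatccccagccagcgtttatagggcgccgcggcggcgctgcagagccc
NFKB1: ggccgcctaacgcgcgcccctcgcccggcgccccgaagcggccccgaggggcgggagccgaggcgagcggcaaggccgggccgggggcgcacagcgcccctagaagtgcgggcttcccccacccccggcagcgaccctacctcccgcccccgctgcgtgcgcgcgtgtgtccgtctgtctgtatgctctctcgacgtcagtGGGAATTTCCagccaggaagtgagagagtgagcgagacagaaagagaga
IKBKE: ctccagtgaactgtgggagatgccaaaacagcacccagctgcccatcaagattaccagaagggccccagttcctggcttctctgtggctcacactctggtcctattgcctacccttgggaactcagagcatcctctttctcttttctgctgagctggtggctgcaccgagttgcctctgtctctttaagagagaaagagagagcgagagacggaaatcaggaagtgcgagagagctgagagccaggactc

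A κB match was present in at least 1 window of 6 of the 9 genes (NFKB1, NFKB2, NFKBIA, BCL3, TNFAIP3 and BIRC3), against 13.3% of the 27305 genes with a window of this length. Counted from the RefSeq start of the window, with negative positions before it, BIRC3 held matches at -199 to -190 and at -135 to -126. TNFAIP3 held them at -67 to -58 and at -55 to -46. For TNFAIP3 this start is at 137867259, inside the gene as counted, which begins at 137866349. The match of NFKBIA lay at -81 to -72, and that of NFKB1 at -49 to -40. The gamma-activated site of interferon-induced promoters, TTCNNNGAA, and the interferon-stimulated response element, searched as GAAA and GAAA with 2 bases between them, were each found in RELA alone, in the upstream of its 2 windows. These motifs occur in 9.38% and 4.38% of all genes with a window. The matches describe the letters of these windows only.

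**Figure D1:**
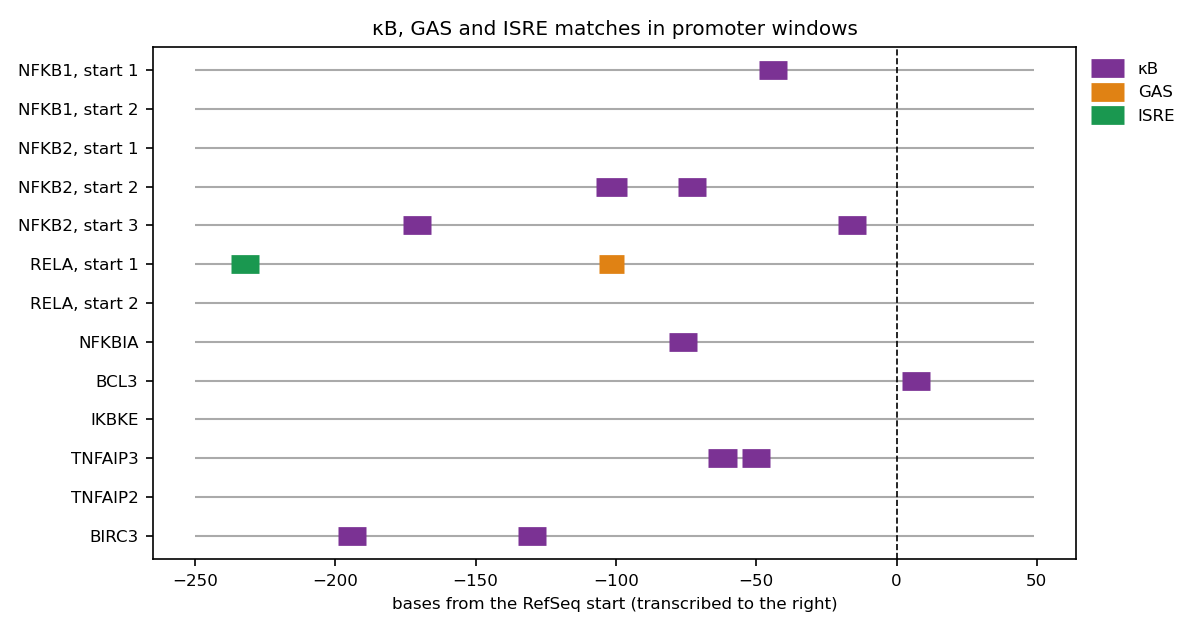
Position of motif matches in the 13 promoter windows of 9 genes, in bases from the RefSeq start (0, dashed), with κB matches in purple, the gamma-activated site (GAS) in orange and the interferon-stimulated response element (ISRE) in green. Matches to κB lie in windows of 6 genes, mostly before the start, and RELA holds the single GAS and ISRE match.

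The libraries held 46652288 to 72952859 counts each, and levels are expressed as CPM, that is, counts relative to the TMM-scaled library size. The 3 counts taken as the floor of detection came to 0.0409 to 0.0608 CPM, below every value of the 10 genes. IRF1 stood at 16.8 ± 1.28 CPM (SD, n = 5) in untreated and at 527 ± 61.9 CPM (SD, n = 5) in treated WT clones, and at 18.9 ± 6.74 and 500.1 ± 162 CPM (SD, n = 5) in the clones labelled KO. Among the markers of osteoblasts and mesenchymal cells, 5 of 8 averaged above 1 CPM in every group, SP7, BGLAP and COL1A2 did not, and the 7 leukocyte markers averaged below 1 CPM in each group, with sums of 0.614 to 2.85 CPM in single libraries (0.444 to 12.7 CPM for 3 epithelial markers). ZBTB48 was at 8.05 to 9.19 CPM in the untreated WT clones and at 1.27 to 4.04 CPM in 4 clones labelled KO. The clone labelled KO replicate 3 had 11.3 CPM, so its mRNA was not lowered. After IFNγ the same clone had 15.97 CPM, against 8.91 to 11.7 CPM in the WT clones. The mRNA level does not show whether this clone makes the protein. Values are therefore given by label, and for the 10 genes those without KO replicate 3 stand beside the comparisons in which the KO label enters. The labels also tie the treated and the untreated library of a clone together, but among the libraries labelled KO the treated library of replicate 4 resembled the untreated library of replicate 5 and the reverse, so the fits with the clone as a block are given for both matchings.

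Measured as TPM, counts scaled to exonic length and library size, RELA was the most abundant of the 10 mRNAs in every group, at 122 ± 9.09 TPM (SD, n = 5) in the untreated WT clones. There its lowest library exceeded the highest library of NFKBIA (56.5 ± 15.6 TPM), which was followed by NFKB2 (44.8 ± 5.23 TPM) and NFKB1 (32.3 ± 5.17 TPM). The ranges of NFKBIA and NFKB2 overlapped, as did those of NFKB2 and NFKB1, whereas NFKB1 stood clear of RELB (22.2 ± 4.43 TPM). RELB, BCL3 (21.8 ± 4.24 TPM), TNFAIP2 (16.4 ± 5.52 TPM) and IKBKE (10.6 ± 1.97 TPM) overlapped from one neighbour to the next. TNFAIP3 (4.12 ± 1.06 TPM) and BIRC3 (1.93 ± 1.31 TPM) formed the lower end and overlapped each other. In the untreated clones labelled KO, the means of NFKB2 (56.5 ± 19.96 TPM) and NFKBIA (44.8 ± 13.4 TPM) changed places, with overlapping ranges. BIRC3 (4.64 ± 6.62 TPM) also had a higher mean there than TNFAIP3 (3.29 ± 1.44 TPM), which rested on KO replicate 3 with 15.7 TPM of BIRC3, against 0.115 to 6.03 TPM in the other clones. In the treated clones labelled KO every gene overlapped the next in the order.

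**Figure D2:**
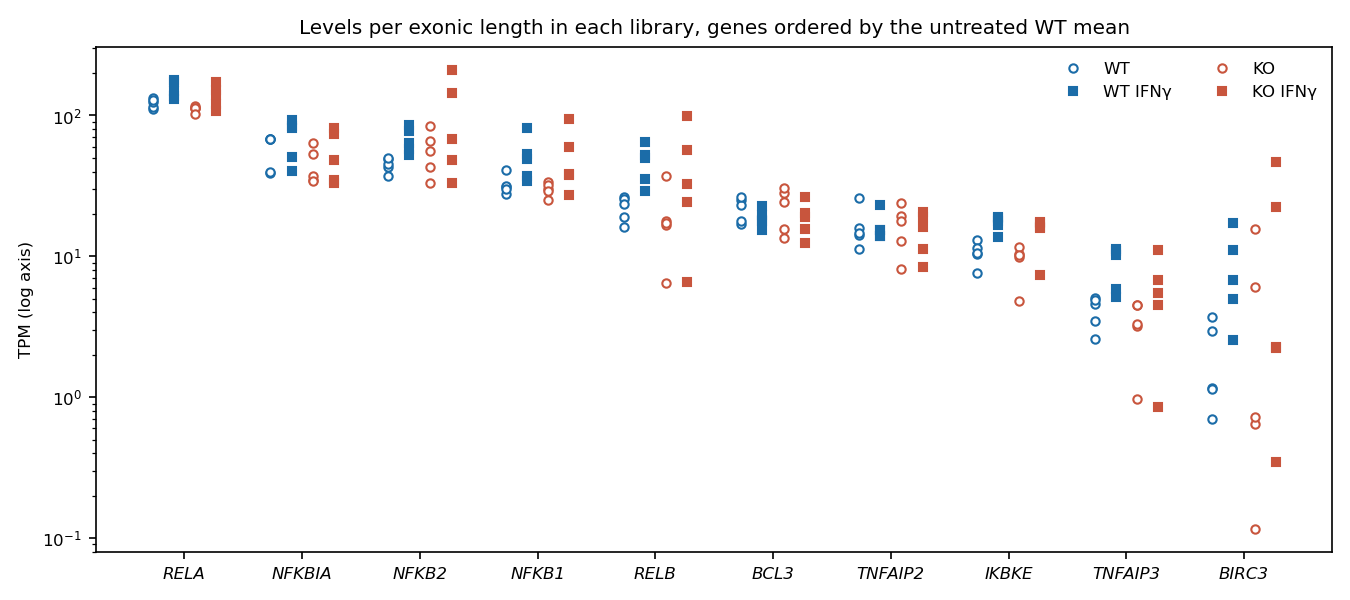
TPM (log axis) of each gene in every library, with genes ordered by their mean in the untreated WT clones, open circles for untreated and filled squares for treated libraries, blue for WT and red for KO labels. RELA has the highest mean in every group, although NFKB2 in the treated library of KO replicate 3 (210.3 TPM) lies above every RELA library, and BIRC3 spans 0.115 to 15.7 TPM among the untreated clones labelled KO.

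IFNγ treatment of the WT clones raised RELB and, at a lower cut-off, NFKB2, RELA, IKBKE, TNFAIP3 and BIRC3. The cut-offs of the study, a 2-fold change and 0.01 for the adjusted p, were applied to edgeR's quasi-likelihood test. Its p was adjusted by Benjamini-Hochberg over all 19522 genes tested. RELB was the 1 gene of the 10 that passed, where 2.48% of all genes passed upwards and 0.512% downwards. With shrunken DESeq2 fold changes, as used in the study, RELB stayed under 2-fold. At an adjusted p under 0.05 and any fold, 6 of the 10 rose, against 6.98% of all genes, and 0 fell, against 4.3%. In 5 of the 10 each treated library exceeded each untreated one, against 7.27% of all genes. The median log2 fold change was 0.69 over the 10 genes and -0.03 over all genes. When the clone entered the fit as a replicate block, which removes the differences between clones, 3 passed both cut-offs (RELB, TNFAIP3 and BIRC3, against 4.44% of all genes) and 8 rose at any fold (against 22.9%). The genes outside these 8 were BCL3 and TNFAIP2. Without the block, the rises of RELA and BIRC3 missed the cut-off at any fold when single libraries were left out (adjusted p up to 0.079 and 0.0705). Over all alternative fits, by edgeR or DESeq2, the adjusted p reached 0.332 for NFKB2, 0.277 for BIRC3, 0.194 for RELB and 0.143 for TNFAIP3. That of IKBKE reached 0.0455.

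RELB is the subunit of the non-canonical pathway and lies on chromosome 19 from 45001464 to 45038192, plus strand, of GRCh38. In the WT clones of replicates 1 to 5 it had 24.5, 15.5, 22.7, 16.7 and 21.9 CPM untreated and 65.2, 28.8, 49.1, 46.7 and 34.4 CPM after IFNγ. The lowest treated library stood above the highest untreated one. The log2 fold change was 1.13 (standard error, SE, 0.22, adjusted p = 0.00675, edgeR as above). This gene lies near the cut-off, since the adjusted p ranged from 0.00355 to 0.0201 when 1 library was left out at a time. Its partner NFKB2, on chromosome 10 from 102394110 to 102402529, plus strand, encodes the precursor p100. NFKB2 had 50.002, 60.3, 63.3, 58.0 and 67.0 CPM in the untreated and 94.0, 83.9, 118, 107 and 74.9 CPM in the treated WT clones. These ranges did not overlap either, and its log2 fold change of 0.66 (SE 0.13, adjusted p = 0.00796) stayed under 2-fold.

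RELA, the subunit that carries the main transactivation domain of the canonical dimer, lies on chromosome 11 from 65653601 to 65662916, minus strand. Its values were 108, 116, 116, 121 and 124 CPM in the untreated and 182, 136, 146, 177 and 141 CPM in the treated WT clones. The ranges were apart, with a small log2 fold change of 0.40 (SE 0.11, adjusted p = 0.0324). NFKB1, the precursor of p50, lies on chromosome 4 from 102501359 to 102617302, plus strand. It had 64.5, 45.2, 46.0, 46.4 and 47.2 CPM in the untreated and 138, 62.3, 77.2, 84.8 and 56.0 CPM in the treated WT clones. The untreated library of replicate 1 lay above 2 treated libraries of other clones, and NFKB1 was higher after IFNγ in 5 of 5 clones. Its log2 fold change was 0.73 (SE 0.22, adjusted p = 0.0595) without and 0.67 (SE 0.10, adjusted p = 8.71e-04) with the replicate block.

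NFKBIA encodes IκBα, the inhibitor that retains the canonical dimer, and lies on chromosome 14 from 35401513 to 35404749, minus strand. It had 38.0, 22.9, 36.0, 35.8 and 22.0 CPM in the untreated and 50.9, 30.4, 52.4, 46.3 and 23.6 CPM in the treated WT clones. Replicates 2 and 5 were low and replicates 1, 3 and 4 were high in both conditions, so the groups overlapped although each clone moved up. The log2 fold change of 0.38 (SE 0.24, adjusted p = 0.384) did not pass without the block, and passed at any fold with it (0.36, SE 0.06, adjusted p = 6.02e-04). BCL3, a nuclear member of the inhibitor family that binds p50 and p52 dimers, lies on chromosome 19 from 44747705 to 44760044, plus strand. It had 15.8, 17.3, 22.1, 20.2 and 24.5 CPM in the untreated and 18.1, 15.4, 16.95, 21.4 and 19.1 CPM in the treated WT clones. It was higher after IFNγ in 2 of 5 clones, with a log2 fold change of -0.15 (SE 0.15, adjusted p = 0.614).

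IKBKE, a kinase related to the IκB kinases that also acts on interferon regulatory factors, lies on chromosome 1 from 206470476 to 206496889, plus strand. In the WT clones it had 15.3, 14.0, 11.5, 11.6 and 8.94 CPM untreated and 24.2, 20.8, 16.3, 21.1 and 22.8 CPM after IFNγ. Every treated library was above every untreated one, and the log2 fold change was 0.77 (SE 0.17, adjusted p = 0.0129). TNFAIP3 encodes A20, a ubiquitin-editing enzyme that shuts off signalling to NF-κB, and lies on chromosome 6 from 137866349 to 137883312, plus strand. It had 11.4, 6.07, 9.71, 10.3 and 7.74 CPM in the untreated and 27.4, 12.3, 23.2, 24.6 and 13.8 CPM in the treated WT clones. These groups were apart too. Its log2 fold change was 1.14 (SE 0.26, adjusted p = 0.0150) without and 1.12 (SE 0.08, adjusted p = 9.32e-07) with the block. TNFAIP3 shares 894 exonic bases with the antisense gene WAKMAR2, which had at most 0.452 CPM in any library, and the strand setting of the counting is not given in the sources used here.

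BIRC3, a ubiquitin ligase that inhibits cell death and takes part in signalling from TNF receptors, lies on chromosome 11 from 102317484 to 102339403, plus strand. It had the largest fold change of the 10 genes in the WT clones and rank 314 among the 19522 genes tested. Its values were 9.12, 3.01, 6.91, 1.62 and 2.82 CPM untreated and 29.5, 17.7, 43.0, 12.4 and 6.60 CPM after IFNγ. The treated library of replicate 5 lay below the untreated libraries of replicates 1 and 3, so the groups overlapped. The log2 fold change was 2.19 (SE 0.56, adjusted p = 0.0284) without and 2.19 (SE 0.26, adjusted p = 7.05e-04) with the block. TNFAIP2, first described as an endothelial gene induced by TNF, lies on chromosome 14 from 103121469 to 103137439, plus strand. It had 46.0, 29.7, 24.0, 19.0 and 26.0 CPM in the untreated and 44.8, 26.5, 27.5, 28.0 and 26.1 CPM in the treated WT clones. Replicate 1 was the highest in both conditions, and the log2 fold change was 0.06 (SE 0.24, 95% interval -0.45 to 0.58, adjusted p = 0.915).

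**Figure D3:**
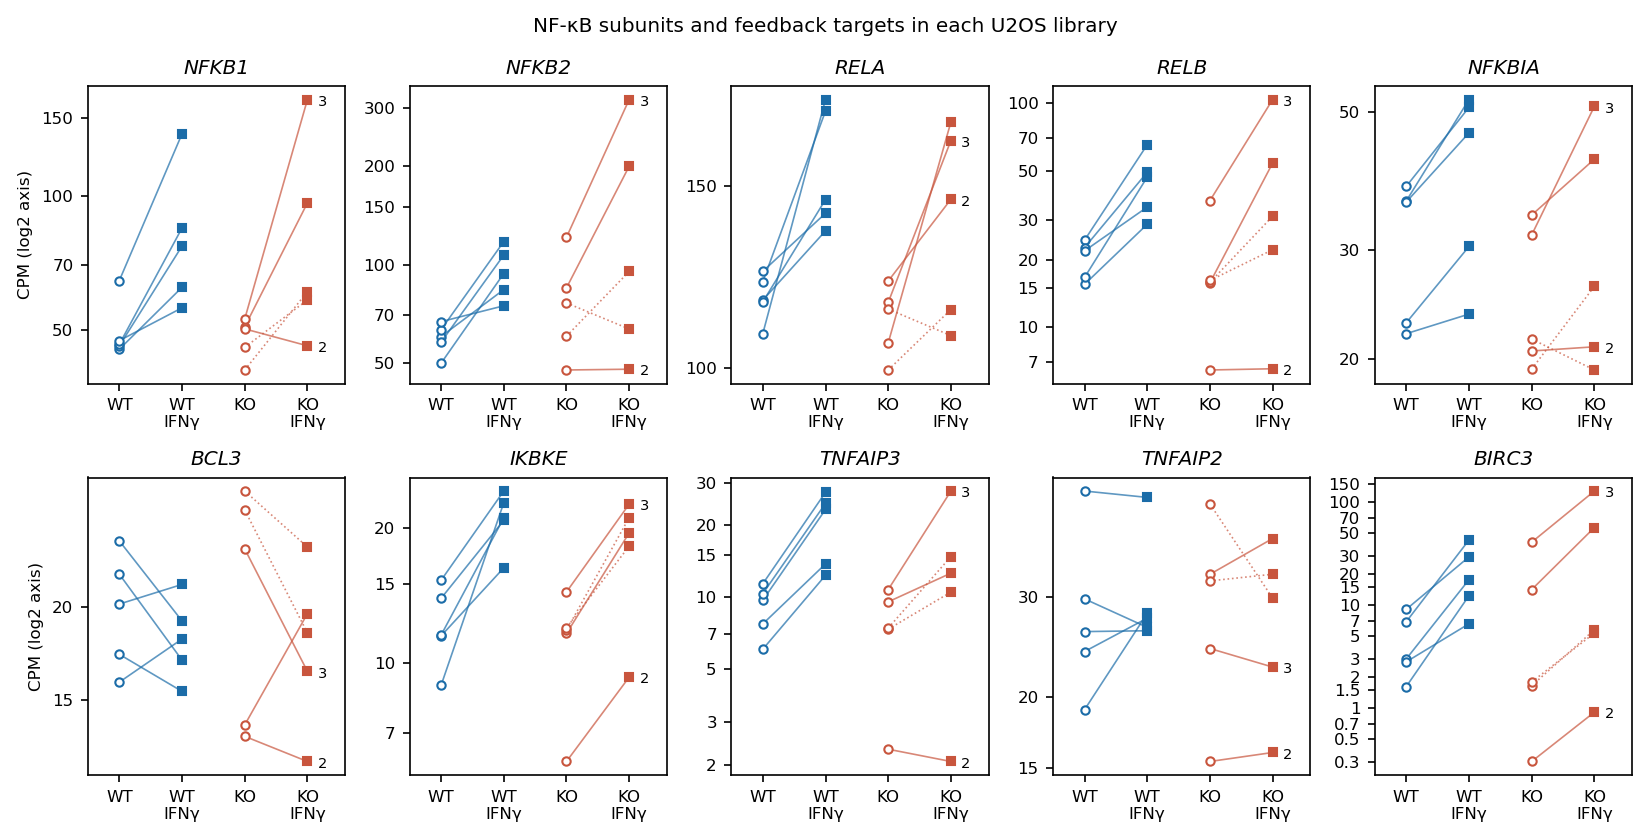
CPM (log axis, scaled for each gene) of the 10 genes in the 20 libraries, with open circles for untreated and filled squares for treated libraries, blue for WT and red for KO labels, and lines joining the libraries of a clone as labelled (dotted for KO replicates 4 and 5). The numbers 2 and 3 mark the treated libraries of KO replicates 2 and 3, which lie at the bottom and top of the group for BIRC3, RELB, TNFAIP3, NFKB1 and NFKB2.

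In the clones labelled KO 0 of the 10 genes passed at either cut-off after IFNγ, and the values of BIRC3, RELB, NFKB2 and TNFAIP3 differed widely from clone to clone. The share of all 19385 genes tested that rose was 1.7% at both cut-offs and 5.41% at any fold, and 0 of the 10 had groups without overlap, against 6.05% of all genes that were higher and 3.41% that were lower. By edgeR 3 of the 10 (NFKB1, RELA and IKBKE) had an unadjusted p under 0.05, against 23.5% of all genes, and DESeq2 also called 0 at both cut-offs. The median log2 fold change was 0.76 over the 10 genes and -0.03 over all genes. With the clone as a replicate block BIRC3 passed both cut-offs as 1 of 10 (against 2.71% of all genes), and RELB, IKBKE and BIRC3 rose at any fold (3 of 10, against 11.1%). After exchange of the treated libraries of KO replicates 4 and 5, the block gave 1 gene (against 3.83%) and 5 genes (against 17.9%), with RELA and TNFAIP3 added. Without KO clone 3, and without the block, 0 of the 10 passed at either cut-off (against 0.759% and 2.34% of all genes).

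BIRC3 spanned more than any other of the 10 genes between these clones. In KO replicates 1 to 5 it had 14.2, 0.303, 41.0, 1.65 and 1.79 CPM untreated and 56.9, 0.913, 129, 5.77 and 5.37 CPM after IFNγ. The highest untreated library exceeded the lowest by 135-fold, and the lowest rested on 15 counts. Yet each clone, as labelled, was higher after IFNγ than before by a similar margin. In log2 of CPM plus 0.1 it ran from 1.33 to 1.997, with a mean of 1.65 ± 0.25 (SD, n = 5). The lowest response was that of replicate 2, whose low values make the added 0.1 weigh most. With KO replicates 4 and 5 exchanged the mean was 1.65 ± 0.24 (SD, n = 5). Across clones treated as independent, the log2 fold change was 1.73 (SE 1.37, adjusted p = 0.501), and with the block it was 1.74 (SE 0.11, adjusted p = 8.16e-05). With both libraries of KO clone 3 left out and no block it was 1.92 (SE 1.35), without the treated one alone 0.54 and without the untreated one alone 3.11. With KO replicates 4 and 5 exchanged the block gave 1.75 (SE 0.10, adjusted p = 1.44e-06). In bulk RNA a difference in the share of cells that express a gene and a difference in the RNA per cell cannot be told apart.

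IKBKE had the smallest spread of responses among the clones labelled KO. It had 11.7, 6.05, 14.4, 11.9 and 12.004 CPM in the untreated and 19.5, 9.32, 22.6, 21.1 and 18.2 CPM in the treated clones labelled KO. Replicate 2 was low in both conditions and its treated library fell within the untreated range. The response per clone was 0.68 ± 0.10 (log2, SD, n = 5) here and 0.79 ± 0.34 in the WT clones, and the log2 fold change was 0.69 (SE 0.27, adjusted p = 0.149) without and 0.69 (SE 0.10, adjusted p = 0.00477) with the block, where the exchanged matching gave an adjusted p of 3.70e-04. Without KO clone 3, and without the block, it was 0.72 (adjusted p = 0.299).

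The subunits moved unevenly among the clones labelled KO. RELB had 15.8, 6.46, 36.7, 15.9 and 16.2 CPM untreated and 54.0, 6.54, 104, 31.3 and 22.2 CPM after IFNγ. NFKB2 had 84.9, 47.7, 121, 60.5 and 76.4 CPM untreated and 199.8, 47.9, 319, 95.3 and 63.6 CPM after IFNγ. In both genes replicate 2 was the lowest before and after treatment and changed by less than 0.02 on the log2 scale, while replicate 3 was the highest. Their log2 fold changes were 1.25 for RELB (SE 0.63, adjusted p = 0.26) and 0.88 for NFKB2 (SE 0.48, adjusted p = 0.301). With the block RELB rose by 0.96 (SE 0.25, adjusted p = 0.0313, or 0.0205 with the exchanged matching). Without KO clone 3, and without the block, the values were 1.07 for RELB and 0.59 for NFKB2, and without its treated library alone they were 0.65 and 0.38. NFKB1 had 50.8, 50.2, 52.9, 40.6 and 45.6 CPM untreated and 96.6, 46.0, 165, 60.9 and 58.4 CPM treated. Its untreated clones were close together and its treated ones ranged over 3.59-fold, with a log2 fold change of 0.82 (SE 0.30, adjusted p = 0.127), or 0.49 without KO clone 3. RELA ranged from 99.6 to 121 CPM untreated and from 108 to 173 CPM treated, with a log2 fold change of 0.34 (SE 0.14, adjusted p = 0.172), or 0.29 without KO clone 3. Leaving out the treated library of KO replicate 2 alone brought NFKB1 (0.98, adjusted p = 0.0484) and IKBKE (0.86, adjusted p = 0.0348) past the cut-off at any fold.

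TNFAIP3 had 9.56, 2.32, 10.8, 7.35 and 7.43 CPM in the untreated and 12.6, 2.06, 27.7, 10.5 and 14.8 CPM in the treated clones labelled KO. Replicate 2 was again the lowest, with a log2 response of -0.16, and replicate 3 the highest, with 1.36. The log2 fold change was 0.85 (SE 0.56, adjusted p = 0.406), or 0.59 without KO clone 3, and the response per clone was 0.62 ± 0.58 (log2, SD, n = 5), compared with 1.12 ± 0.19 in the WT clones. NFKBIA ranged from 19.3 to 34.2 CPM untreated and from 19.2 to 51.1 CPM treated (log2 fold change 0.32, SE 0.29, adjusted p = 0.57). BCL3, at 13.4 to 28.7 and 12.4 to 24.1 CPM, and TNFAIP2, at 15.4 to 43.6 and 16.0 to 38.0 CPM, had log2 fold changes of -0.23 (adjusted p = 0.648) and -0.09 (adjusted p = 0.896). Without KO clone 3, and without the block, the log2 fold changes were 0.18 for NFKBIA, -0.15 for BCL3 and -0.08 for TNFAIP2.

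**Figure D4:**
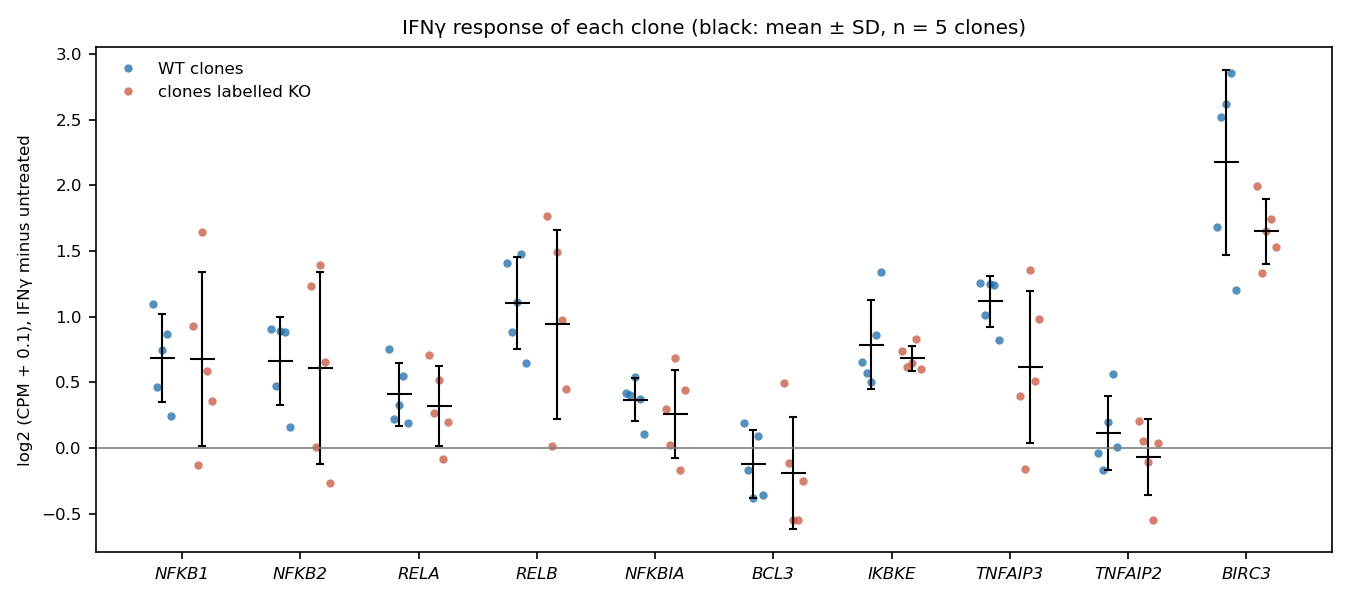
Response of each clone to IFNγ as labelled, as the treated minus the untreated log2 value of CPM plus 0.1, with a point for each clone and the mean ± SD in black. BIRC3, IKBKE and RELB lie above 0 in all 10 clones, RELB by 0.018 in the lowest. The clones labelled KO have a larger SD than the WT clones for every gene except BIRC3 and IKBKE.

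The levels of these genes did not separate WT clones from clones labelled KO in either condition. The comparison asks whether ZBTB48 bears on the NF-κB genes. Of the 10 genes, 0 passed in untreated libraries, where 0.0154% of all 19505 genes passed both cut-offs and 0.0308% passed at any fold as higher in WT clones, and 0% as lower. There 0 of the 10 had an unadjusted p under 0.05, against 4.79% of all genes, and 0 had groups without overlap, against 0.528% higher and 0.431% lower. With IFNγ these counts of the 10 genes were again 0. The shares of all 19383 genes were 0.0155% and 0.0206% as higher and 0% as lower, 4.35% with an unadjusted p under 0.05, and 0.573% and 0.253% higher and lower without overlap. DESeq2 called 0 in both as well. The log2 fold changes, positive where WT clones were higher, lay between -1.32 and 0.29 untreated and between -0.85 and 0.57 with IFNγ, with a median over the 10 genes of 0.07 and 0.08. The intervals were narrowest for RELA, whose log2 difference was 0.08 (95% interval -0.12 to 0.28) untreated and 0.14 (95% interval -0.19 to 0.46) with IFNγ. For BIRC3 they were wide, at -1.32 (95% interval -3.57 to 0.93) and -0.85 (95% interval -3.08 to 1.37), so that a difference of more than 4-fold towards the KO labels was within them.

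Several of these differences moved with single clones, among them KO replicate 3, whose ZBTB48 mRNA was not lowered. Without it, the log2 difference of BIRC3 moved from -1.32 to 0.06 untreated and from -0.85 to 0.32 with IFNγ. That of RELB moved from 0.16 to 0.58 and from 0.04 to 0.63, and that of NFKB2 from -0.38 to -0.17 and from -0.61 to -0.11. For TNFAIP3 the values were 0.28 and 0.44 untreated, and 0.57 and 0.99 with IFNγ. Of these 4 genes BIRC3 changed sign. Without KO replicate 2 instead, RELB changed sign, to -0.06 untreated and -0.25 with IFNγ, and BIRC3 stood at -1.64 and -1.18. NFKB2 was then at -0.52 (unadjusted p = 0.0149, adjusted p = 0.802, edgeR) untreated and -0.83 with IFNγ. Without KO replicate 3, 0 of the 10 genes passed at either cut-off, with adjusted p values from edgeR of 0.999 untreated and 0.997 with IFNγ.

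**Figure D5:**
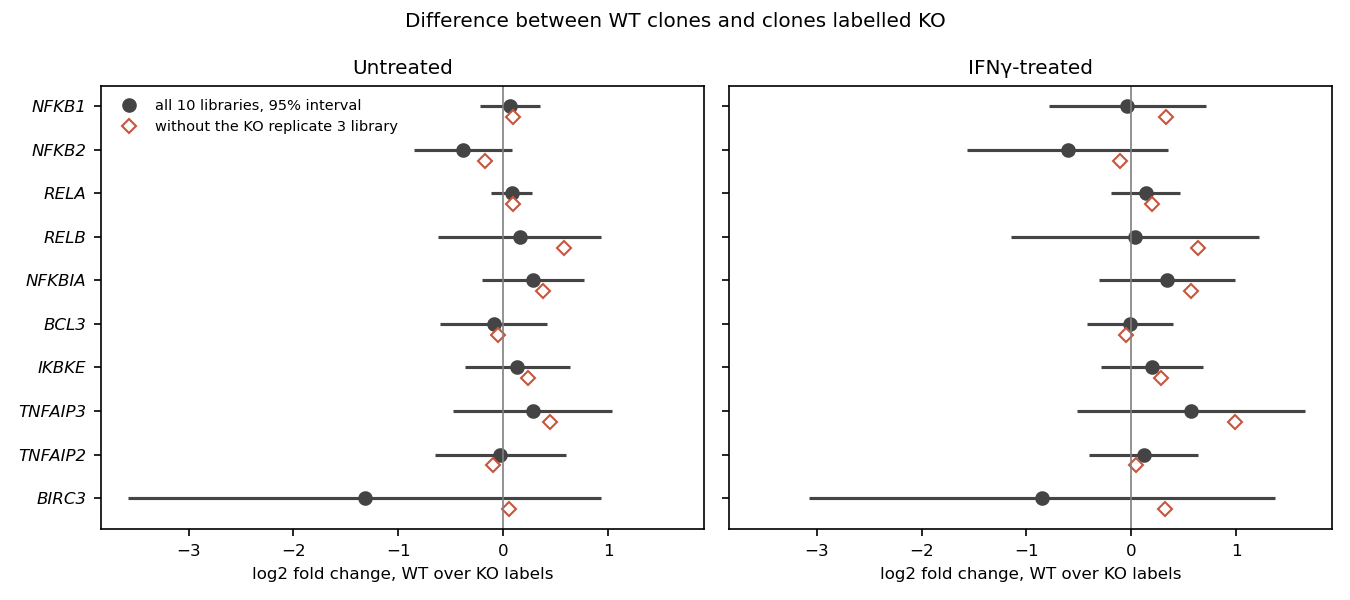
Log2 fold change of WT clones over clones labelled KO in untreated (left) and treated (right) libraries, with the edgeR estimate over 10 libraries (dark points, 95% intervals) and the estimate without the KO replicate 3 library (open diamonds). Each interval includes 0, and BIRC3, with the widest interval, moves to the positive side without that library.

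The difference between the responses of the WT clones and of the clones labelled KO was fitted over all 20 libraries. In this fit the libraries of a clone were taken as independent. Of the 10 genes 0 passed at either cut-off, as did 0% of the 21052 genes tested. An unadjusted p under 0.05 was found for 0 of the 10, against 0.409% of all genes, and clone responses that did not overlap for 0 of the 10, against 0.204% of all genes that were higher in WT clones and 0.138% that were lower. BIRC3 had a difference of 0.46 (WT minus KO, log2, 95% interval -2.80 to 3.71) and TNFAIP3 of 0.28 (95% interval -1.07 to 1.62). Without KO clone 3 they were 0.26 and 0.54. With the clones as replicate block they were 0.43 (SE 0.29) for BIRC3 and 0.46 (SE 0.24) for TNFAIP3, with a smaller spread than without it. With the block TNFAIP3 had the smallest unadjusted p of the 10 genes (0.0798, or 0.0735 with the exchanged matching, adjusted p = 0.9999 and 0.999, edgeR). The comparisons share libraries with each other, so their values are given side by side only.

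Differences between clones were large for some of these genes and small for others. The standard deviation of log2 CPM between clones, pooled over the 4 groups, was 2.07 for BIRC3, above that of 99.4% of 15116 genes with a mean of at least 1 CPM, whose median was 0.327. It was 0.91 for RELB (92.7%), 0.87 for TNFAIP3 (92.0%) and 0.64 for NFKB2 (85.4%). RELA stood at the other end with 0.20, above 16.2% of the genes. KO replicate 2 was the lowest of the 10 clones in 7 of the 10 genes untreated and in 8 of 10 with IFNγ. KO replicate 3 was the highest in BIRC3, NFKB2 and RELB untreated, and in these and in NFKB1 and TNFAIP3 with IFNγ. KO replicate 2 also had the lowest IRF1 (297 CPM) and CXCL10 (12.9 CPM) of the treated libraries, 2 interferon-induced genes outside the set, and KO replicate 3 the highest IRF1 (699 CPM). The part of these clone differences in the results was not tested.

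The likeness of patterns was measured as the root mean square difference of centred log2 CPM over the 20 libraries, among 15116 genes. RELB had TNFAIP3 as its nearest gene (0.385), followed by IL4I1 (0.452) and LINC01152 (0.453). TNFAIP3 had LOC105374003 (0.369), RELB and LINC01152 (0.399). The nearest genes of BIRC3 were IGF2BP3 (0.890), RPLP0P2 (0.922) and LOC124903082 (1.01), all far from it. The nearest gene of NFKB1 was GAR1 (0.225), of NFKB2 ZNF267 (0.367), of RELA ZFPL1 (0.110), of NFKBIA CLMP (0.274), of BCL3 RAPGEF6 (0.217), of IKBKE TMA16 (0.229) and of TNFAIP2 SEC24B (0.25). Small differences are easier to reach for genes with little spread, such as RELA. The libraries of a clone are not independent, and the values are a description.

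The rest of the NF-κB pathway was read from a list of 63 further genes. In the WT clones 55 were tested, of which 10 passed both cut-offs upwards and 20 rose at any fold, and 0 fell at either cut-off (all genes 2.48%, 6.98%, 0.512% and 4.3%). The median log2 fold change of the list was 0.30. The inhibitor family gave NFKBIE (IκBε, 1.19, adjusted p = 0.00498) and NFKBIZ (IκBζ, 0.89, adjusted p = 0.0105), which were among 3 of 5 genes that rose at any fold. Of the kinases 1 of 11 rose, MAP3K14 (1.10, adjusted p = 0.00648), the NIK kinase of the non-canonical pathway. Of the receptors and adaptors 4 of 13 rose, led by the adaptor TRAF1 (3.88, adjusted p = 0.0095) and the RNA sensor TLR3 (3.12, adjusted p = 3.40e-04). Among the negative regulators 4 of 11 rose, led by RBCK1, a subunit of the linear ubiquitin ligase (1.46, adjusted p = 6.31e-06), and the deubiquitinase CYLD (0.95, adjusted p = 0.00186). Of the target genes 8 of 15 rose, led by BCL2A1, an inhibitor of apoptosis (4.80, adjusted p = 3.29e-04), and the chemokine CXCL8 (2.63, adjusted p = 0.014).

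In the clones labelled KO 56 genes of this list were tested, of which 4 passed both cut-offs upwards (against 1.7% of all genes), 10 rose at any fold (against 5.41%) and 0 fell (against 0.258% and 2.47%). Named by role, as up to 2 genes with the largest rise among those at an adjusted p under 0.05, were BCL2A1 (log2 fold change 5.09, adjusted p = 0.029), TLR3 (3.24, adjusted p = 0.0159), the cytokine IL6 (2.02, adjusted p = 0.00917), RBCK1 (1.66, adjusted p = 9.64e-04), CYLD (1.10, adjusted p = 0.0194), the adaptor BCL10 (1.05, adjusted p = 0.00471) and the kinase adaptor TAB2 (0.43, adjusted p = 0.0168). Values without KO replicate 3 were not drawn for this list. Treated BCL2A1 was at 56.5 CPM in KO replicate 3, against 0.633 to 11.98 CPM in the other clones labelled KO. KO replicate 3 was the highest treated clone labelled KO for each of these named genes except TLR3. Between WT clones and clones labelled KO, and for the difference between the responses, 0 genes of the list passed at either cut-off (all genes at most 0.0308%, 0.0206% and 0%). By edgeR 6 of 57 had an unadjusted p under 0.05 untreated (all genes 4.79%), 5 of 55 with IFNγ (4.35%) and 0 of 57 for the difference (0.409%).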

How the data were processed

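RNA from U2OS clones was sequenced as stranded poly(A) mRNA libraries, 5 per group. Per the submitters' processing notes and the study's methods, the authors aligned the reads with STAR 2.7.9a to GRCh38 and counted unique mappers with featureCounts 2.4.0. The authors deposited raw counts per RefSeq gene, not normalized, with gene positions and lengths in the same table, and no other column of per-sample values was present. The 10 genes, the gene lists and the alternatives were chosen with earlier results of these data known.

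Counts were fitted in R 4.3.3 with edgeR 4.0.16 (limma 3.58.1), with TMM scaling, filterByExpr and robust quasi-likelihood fits, on the 10 libraries of a comparison, or on all 20 for the difference between responses. P values were adjusted by the Benjamini-Hochberg method across all genes tested. Standard errors and 95% intervals come from the fit. Depth was 46652288 to 72952859 counts, and the floor of 3 counts covers counting error only. The fits were tested on simulated data. TPM used the deposited gene lengths. Alternatives were DESeq2 1.42.0, other scaling, no filter, leaving out libraries and a replicate block. The study's methods use DESeq2 with shrunken fold changes. The block follows the clone labels, which join a treated to an untreated library. Deviations of joined libraries from their group correlated at Pearson's r of 0.79 to 0.89 in the WT clones, and at 0.78, 0.85, 0.70, 0.00 and 0.07 in KO replicates 1 to 5, and the exchanged libraries of KO replicates 4 and 5 at 0.76 and 0.84, over 15113 genes, which are not independent replicates. Numbers did not pair WT with KO clones (r from -0.26 to 0.25).

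All 10 genes are named in each comparison. Of the pathway list, those named are, in each role, up to 2 genes with the largest rise and 2 with the largest fall at an adjusted p under 0.05. The 3 genes most alike in pattern were sought for each gene, and the report names all 3 for RELB, TNFAIP3 and BIRC3 and the nearest for the others. Promoters are from RefSeq.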

Additional observations from a re-analysis of the deposited data

Results flagged for a closer look

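In 2 of 40 sets of 5 libraries, 1 set for each gene and group, a single library stood apart from the others by Dixon's test (critical value 0.71), which chance gives in about 1 of 20 sets. NFKB1 in the untreated WT clones was highest in replicate 1, at 64.5 CPM, and TNFAIP2 in the treated WT clones was highest in replicate 1, at 44.8 CPM. Both libraries belong to the same clone.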

How the results depend on the processing

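The number of the 10 genes past both cut-offs after IFNγ in the WT clones was 1. It became 3 with DESeq2 without shrinkage, 2 without the filter on low counts, 0 with all 20 libraries fitted together, 6 at an adjusted p under 0.05 and any fold, 3 with the replicate block and 8 with the block at any fold. Leaving out 1 library at a time gave 0 to 2. In the clones labelled KO the number was 0. It became 1 with the replicate block, as labelled or with replicates 4 and 5 exchanged, and 3 and 5 at any fold. The any-fold counts with the block were chosen after seeing the data, as was leaving out KO clone 3 (0) or KO clones 2 and 3 together, which gave 0 past both cut-offs and left IKBKE at an adjusted p of 0.0482. For the other comparisons the number stayed at 0 in each alternative, and no value past a cut-off changed direction. RELB in the WT clones missed the cut-offs with shrunken DESeq2 fold changes (0.97), with all 20 libraries (adjusted p = 0.194) and without each of 8 libraries in turn, all but the treated libraries of replicates 2 and 5. The cause of these changes was not tested. Over all genes, calls in the WT clones rose from 585 to 976 (DESeq2) and 1414 (block), and in the clones labelled KO from 379 to 823 (DESeq2), 613 (shrunken), 642 (all 20 libraries), 721 (block) and 1208 (block, exchanged), and fell to 160 without KO clone 3. Shrunken fold changes were not run for the difference between responses. The lowest count of the 10 genes was 15, for BIRC3 in an untreated clone labelled KO.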
